A study of Saccharomyces cerevisiae with 6 samples.

Results

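A set of 10 genes of budding yeast whose names or annotation tie them to stationary phase or respiratory growth was followed in cells grown with myriocin. They are SPG1, SPG3, SPG4, SPG5, RTN2, RGI1, RGI2, NCA3, SNZ1 and SNO1, 10 of the 5420 genes read by a probe set that named 1 gene. The set was chosen by the difference between myriocin and control signals on these same 6 arrays, as genes with large increases, so the differences given for its members are descriptions and carry no test. The label held for only part of it: 6 of the 10 genes were higher with myriocin by more than 3 on the log2 scale, 2 were higher by less than 1, SPG5 was not higher, and SNO1 was not above background in either group.

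The samples were 3 biological replicates of DBY746 cells grown with 300 ng/ml myriocin, which blocks serine palmitoyltransferase and with it the start of sphingolipid synthesis, and 3 of DBY746 cells grown without it. All 6 cultures carried the genotype label wild-type, contained 0.3% ethanol and were grown at 30 °C in SDC medium from 0.002 to 2 A600 units per ml, and the labels give this density and no culture time. Each sample was read on 1 single-colour expression array, as log2 signals already normalised by the authors. The highest of 50 negative-control probe sets, 2.07, was taken as the background ceiling. Between 95.3% and 95.7% of the probe sets that named 1 gene lay above it on each array. Markers of alpha cells were bright, with means of 14.25 with myriocin and 14.64 in controls for the pheromone receptor gene STE3, while 3 of 6 a-cell markers (MFA1, MFA2 and ASG7) lay under the ceiling on all 6 arrays. Of the other a-cell markers, BAR1 (2.21 to 2.28) and STE2 (1.79 to 3.03) were close to the ceiling and STE6 was above it, at 7.14 ± 0.07 with myriocin and 6.82 ± 0.34 in control cells. Of all genes, 54.4% passed limma's test at an adjusted p under 0.05: 1384 rose (25.5%) and 1562 fell (28.8%). The spiked hybridisation controls were lower on the myriocin arrays by a median of -0.25, and an alternative that equalised them (hybridisation control scaling) moved the median log2 difference of all genes by 0.32 and gave 2164 higher and 651 lower. The number of arrays limits the precision: over all genes, a log2 difference had a standard error (SE) of 0.11 at the median. A higher signal from a culture cannot tell more RNA per cell apart from more cells that express the gene.

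When glucose runs out, yeast cells switch from fermentation to respiration, slow their growth and enter stationary phase, a resting state with high resistance to heat and oxidants. Many genes of this programme are nearly silent in cells growing on glucose, and are controlled by Msn2 and Msn4, by Gis1 downstream of the kinase Rim15, and by the carbon-source regulators Adr1, Cat8 and the Hap complex. The SPG genes are named for the survival of stationary-phase cells at high temperature. SNZ and SNO genes encode the subunits of the enzyme that makes vitamin B6, and their expression at the end of growth gave SNZ its name.

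In the 6 genes with large differences, the lowest myriocin array stood above the highest control array by 2.44 to 7.67 log2 units. Groups did not overlap, with myriocin higher, for 8 of the 10 genes, against 30.6% of all genes, a share that the choice of the list fixes in part. Log2 differences over 7 were seen in 4 of the 10, against 0.203% of all genes, and over 3 in 6 of the 10, against 1.51% of all genes. The median log2 difference was 3.69 for the 10 genes and -0.03 for all genes.

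SPG1, which encodes a mitochondrial protein of unknown molecular function, had the largest difference. Its log2 signals were 12.10, 10.68 and 10.96 with myriocin, against 3.01, 1.97 and 2.51 in control cells, or 11.25 ± 0.75 and 2.50 ± 0.52 (SD, n = 3 each). The log2 difference was 8.75 (SE 0.53), and 2 genes of those tested had a larger one. The lowest control array lay under the background ceiling and the other control arrays stood within 1 log2 unit of it, so that SPG1 was close to undetected without myriocin.

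NCA3 belongs to the SUN family of cell wall proteins related to glucanases, and acts with Nca2 on the expression of ATP synthase subunits encoded in mitochondrial DNA. NCA3 had log2 signals of 14.05, 14.04 and 14.16 with myriocin and 6.29, 4.94 and 6.95 in control cells. The means were 14.08 ± 0.06 and 6.06 ± 1.03, and the difference was 8.02 (SE 0.59). Most of its spread was on the control side, where replicate 2 was the lowest array.

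RTN2 encodes a reticulon, a protein that bends membranes of the endoplasmic reticulum into tubules. RTN2 had log2 signals of 13.27, 12.44 and 13.05 with myriocin, against 5.78, 4.80 and 4.88 in control cells, a difference of 7.77 (SE 0.40). RGI2, a small protein needed for energy metabolism under respiratory conditions, had 11.50, 9.98 and 10.08 with myriocin, against 3.63, 3.14 and 2.60 in control cells. Its difference was 7.39 (SE 0.57), and its control arrays were low on the scale but above the background ceiling. Myriocin replicate 1 stood above the other myriocin arrays for RGI2, and every myriocin array was at least 6.35 above every control array.

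SNZ1 and SPG4 had differences of middle size and were well above background without myriocin. SNZ1, the vitamin B6 synthase subunit, had log2 signals of 12.18, 11.27 and 11.55 with myriocin and 7.50, 7.62 and 7.91 in control cells. This amounts to a difference of 3.99 (SE 0.30), or 15.9-fold. SPG4 had 14.57, 13.50 and 14.14 with myriocin and 10.43, 10.52 and 11.06 in control cells, a difference of 3.40 (SE 0.37), or 10.6-fold. For both genes the groups were separated by more than the range within either group.

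**Figure D1:**
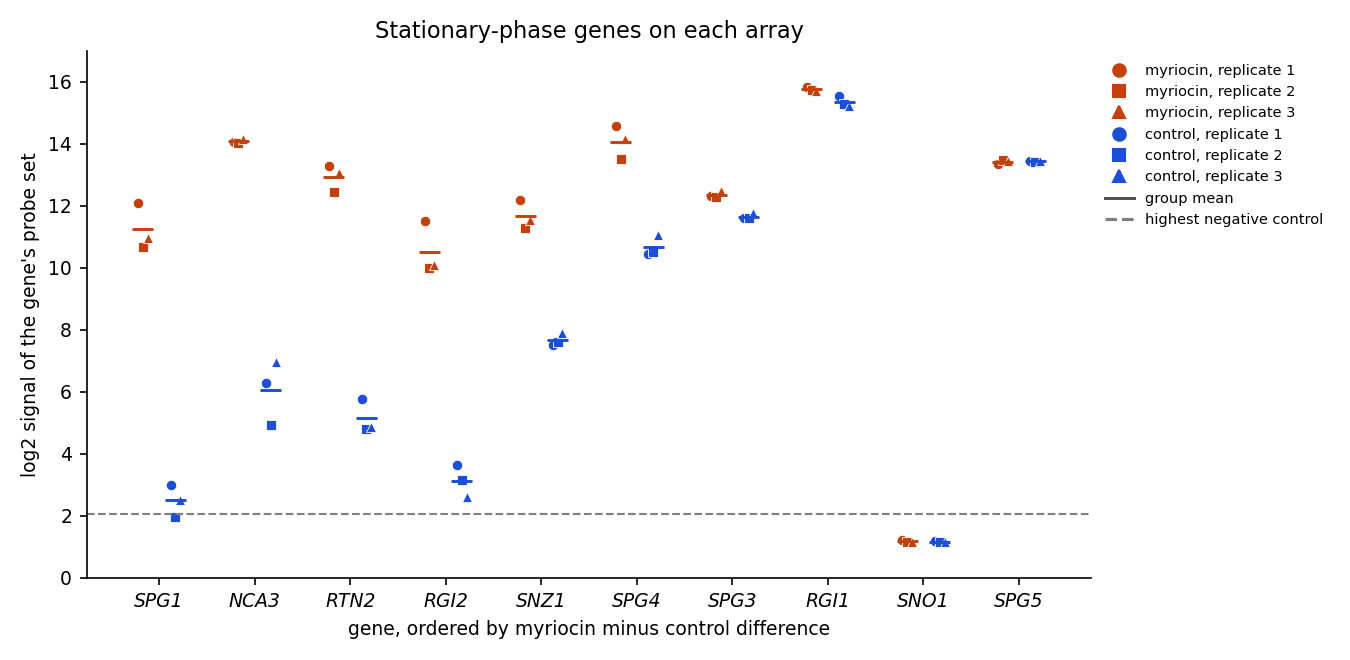
Log2 signal (vertical axis) of the 10 stationary-phase genes on each of the 6 arrays, myriocin arrays left of control arrays for each gene, with group means as bars and the background ceiling of 2.07 as a dashed line. Genes are ordered by difference, from SPG1 at 8.75 to SPG5 at -0.02; SNO1 lies under the ceiling on every array.

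Of the other 4 genes, 3 were measured in both groups with small differences and SNO1 was not measured in either. SPG3 had log2 signals of 12.31, 12.27 and 12.49 with myriocin, against 11.59, 11.61 and 11.76 in control cells, or 12.35 ± 0.12 and 11.66 ± 0.09. The difference was 0.70 (SE 0.09), a 1.62-fold increase, and the groups stood 0.50 apart. Its level without myriocin was already far above background, unlike that of SPG1.

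RGI1, the paralog of RGI2, had 15.83, 15.74 and 15.71 with myriocin and 15.54, 15.29 and 15.23 in control cells, a difference of 0.41 (SE 0.10). These values were close to the top of the scale: the highest value of any probe set was between 15.83 and 15.88 on each array, and RGI1 was itself that value on myriocin replicate 1. Of the 134 genes with a control mean over 15, none had a log2 difference over 0.57, and RGI1 had the second position in that order. How much of a larger change such bright probe sets could show was not tested.

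SPG5 encodes a regulator of the proteasome in stationary-phase cells. SPG5 had 13.36, 13.47 and 13.44 with myriocin and 13.46, 13.41 and 13.43 in control cells, with means of 13.42 ± 0.06 and 13.44 ± 0.03. The groups overlapped and the difference was -0.02 (SE 0.04), so that this gene was bright and near constant while SPG1, SPG3 and SPG4 were higher with myriocin.

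SNO1, the glutaminase subunit that works with Snz1, had 1.21, 1.17 and 1.16 with myriocin and 1.18, 1.14 and 1.17 in control cells. All 6 values lay under the background ceiling, so no fold is given, and the array holds no measured level of SNO1 in either group. SNO1 and SNZ1 are divergent neighbours that are known to be expressed together, and this pair cannot be compared here. In the authors' deposited tables, 8 of the 10 genes were on the longer list of changed genes, which holds 54.9% of all probe sets, and SPG5 and SNO1 were not.

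Among the 6 genes with large differences, the highest myriocin array was mostly the same, and the highest control array was not. The median SD of the myriocin arrays was 0.50 for the 6 genes with differences over 3 and 0.42 for the other 76 genes past that size. For the control arrays it was 0.52 and 0.37. Myriocin replicate 1 was the highest myriocin array for SPG1, RTN2, RGI2, SNZ1 and SPG4, and replicate 3 for NCA3. Control replicate 1 was the highest control array for SPG1, RTN2 and RGI2, and control replicate 3 for NCA3, SNZ1 and SPG4. Among the other 76 genes, myriocin replicate 1 was the highest myriocin array for 42, replicate 3 for 32 and replicate 2 for 2. These 76 include genes listed below as stationary-phase markers, among them FMP45 and CTT1. Whether the order of the arrays was particular to stationary-phase genes was not tested. Without any 1 array, the 6 differences stayed between 3.15 and 9.04.

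The annotated coding length of the 10 genes in the RefSeq R64 assembly was between 288 and 1182 bases, with a median of 585, against a median of 1203 for all 6021 protein-coding genes. All 10 genes were shorter than that median, RTN2 by little. Short and long genes were found on both sides of the list: SPG1, RGI2 and SPG4 have 288, 495 and 348 bases and large differences, and SPG3 and RGI1 have 384 and 486 bases and small ones.

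The next question was whether relatives of these genes, none of them on the list, changed in the same comparison. Among the SUN family and NCA2, no gene came close to NCA3. SIM1 rose by 0.66 (SE 0.09, limma adjusted p = 0.00154), with 13.89, 14.09 and 14.01 with myriocin and 13.34, 13.43 and 13.24 in control cells. NCA2, the partner of NCA3, rose by 0.97 (SE 0.14, limma adjusted p = 0.00216). SUN4 fell by 0.31 (SE 0.09, limma adjusted p = 0.026), and its difference was 0.00 with the hybridisation control scaling. The call held without control replicate 3 and was lost without each of the other arrays (adjusted p from 0.0578 to 0.0867 in limma). UTH1, which was bright at 15.24 ± 0.07 with myriocin and 15.17 ± 0.04 in control cells, had a difference of 0.08 (SE 0.07, limma adjusted p = 0.381), or 0.39 with that scaling (adjusted p = 0.0275).

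RTN1, the other reticulon gene, was lower with myriocin in the signals as deposited, where RTN2 was higher. Its log2 signals were 13.99, 14.16 and 14.19 with myriocin, against 14.49, 14.56 and 14.52 in control cells. RTN1 fell by 0.41 (SE 0.08, limma adjusted p = 0.00665), or had -0.09 with the hybridisation control scaling (adjusted p = 0.593). Signals of different probe sets are on no common scale, so the levels of the 2 reticulons were not compared.

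SNZ2 and SNZ3, nearly identical members of SNZ1's family that share 1 probe set, had 12.11, 12.15 and 12.18 with myriocin and 11.25, 11.24 and 11.49 in control cells. That probe set rose by 0.82 (SE 0.09, limma adjusted p = 0.000841), or 1.76-fold, and which copy it reads was not settled. The probe set of SNO2 and SNO3, the copies in SNO1's family, had 11.01 ± 0.11 with myriocin and 11.05 ± 0.19 in control cells. Its difference was -0.04 (SE 0.12, limma adjusted p = 0.798). Of the 5 relatives with probe sets of their own, 2 rose and 2 fell (40% each, against 25.5% and 28.8% of all genes), with a median of 0.08. Under the hybridisation control scaling 3 rose and no call was lower, against 39.9% and 12% of all genes.

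**Figure D2:**
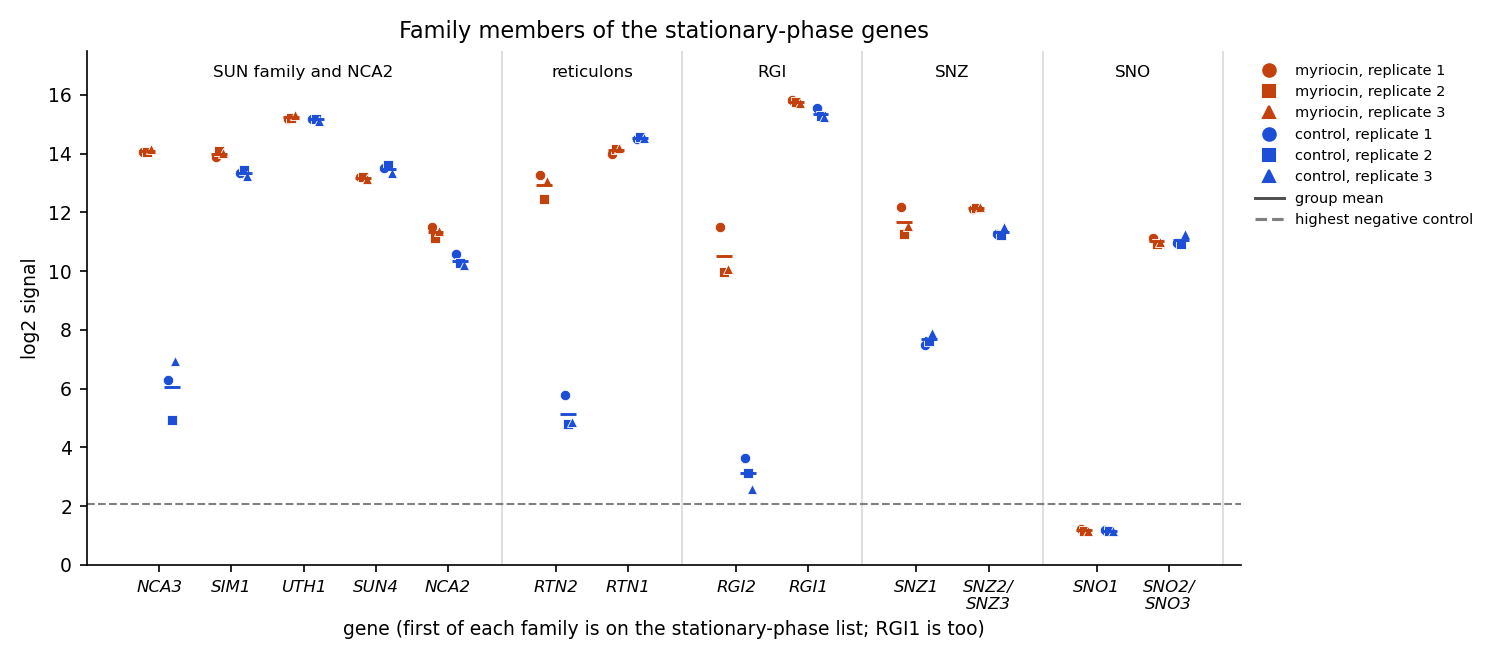
Log2 signal (vertical axis) on each array of NCA3, RTN2, RGI2, RGI1, SNZ1 and SNO1 beside their relatives, myriocin arrays left of control arrays, bars for group means and the background ceiling dashed. The groups stand far apart for NCA3, RTN2, RGI2 and SNZ1, and within 1 log2 unit of each other at the mean for the relatives; levels of different probe sets are on no common scale.

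Vitamin B6 is also needed to make the pyrimidine part of thiamine, and the other genes of both vitamins were examined beside SNZ1. Of 13 measured genes, 4 rose and 4 fell (30.8% each, against 25.5% and 28.8% of all genes), with a median of -0.07. Under the hybridisation control scaling 6 rose and 1 fell, against 39.9% and 12% of all genes. THI21, a kinase of the thiamine pathway, rose by 3.0 (SE 0.08, limma adjusted p = 1.47e-05), with 6.82, 6.64 and 6.85 with myriocin and 3.79, 3.73 and 3.79 in control cells. THI4, which makes the thiazole part, rose by 2.67 (SE 0.10, limma adjusted p = 3.15e-05), and THI6 by 0.74 (SE 0.07, limma adjusted p = 0.000519). The shared probe set of THI5, THI11, THI12 and THI13, which make the pyrimidine part from vitamin B6, rose by 1.35 (SE 0.11, limma adjusted p = 0.000389). THI2, an activator of thiamine genes, fell by 0.85 (SE 0.14, limma adjusted p = 0.00378). BUD16, the pyridoxal kinase, and TPN1, the vitamin B6 transporter, fell by 0.53 and 0.55 (limma adjusted p = 0.00346 and 0.00797), and both lost the call with that scaling (adjusted p = 0.239 and 0.177).

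The measured neighbours on the chromosome did not share the large differences. Of 18 genes next to the 10, 14 were measured, and 6 rose (42.9%) and 4 fell (28.6%), against 25.5% and 28.8% of all genes. Their median log2 difference was 0.16. With the hybridisation control scaling 8 rose and 1 fell, against 39.9% and 12% of all genes. Around SPG1, MIC26, a protein of mitochondrial cristae junctions, rose by 0.41 (SE 0.08) and YGR237C by 0.56 (SE 0.08). Next to NCA3, ASF1, a histone chaperone read in the opposite direction from the same intergenic stretch, rose by 0.53 (SE 0.12), while PHO86, which acts in the export of a phosphate transporter from the endoplasmic reticulum, fell by 0.45 (SE 0.09), or by 0.14 with that scaling (adjusted p = 0.429 in limma). ACK1 beside RTN2 had 0.09 (SE 0.14, limma adjusted p = 0.634).

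MTG1, a mitochondrial GTPase gene next to SNZ1, rose by 0.38 (SE 0.08, limma adjusted p = 0.00893). ILV2, an enzyme of branched-chain amino acid synthesis next to SPG4, fell by 0.54 (SE 0.09, limma adjusted p = 0.00412), or by 0.23 with the hybridisation control scaling (adjusted p = 0.17). SPG3 and RGI1, with small differences, each had a neighbour with a larger one. LPP1, a lipid phosphatase next to SPG3, fell by 1.42 (SE 0.10, limma adjusted p = 0.00024) with 9.73, 9.97 and 9.88 with myriocin and 11.33, 11.36 and 11.14 in control cells, while PSP1, on the other side, rose by 0.68 (SE 0.09). RRT13, next to RGI1, rose by 1.65 (SE 0.40, limma adjusted p = 0.0146), a call that was lost without control replicate 2 (difference 1.51, adjusted p = 0.0519) and in an equal-variance test (adjusted p = 0.0587). MOT2, a ubiquitin ligase of the Ccr4-Not complex and the other neighbour of RGI1, fell by 0.39 (SE 0.09, limma adjusted p = 0.00948), or by 0.08 with that scaling (adjusted p = 0.62). SGS1, a DNA helicase gene, and GYL1, beside SPG5, had 0.18 and 0.14 (limma adjusted p = 0.0888 and 0.184), and both were called higher with that scaling (adjusted p = 0.0113 and 0.0269). CTF13, a kinetochore gene on the far side of SNO1, was near background in both groups, with means of 2.08 ± 0.16 with myriocin and 2.67 ± 0.55 in control cells.

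**Figure D3:**
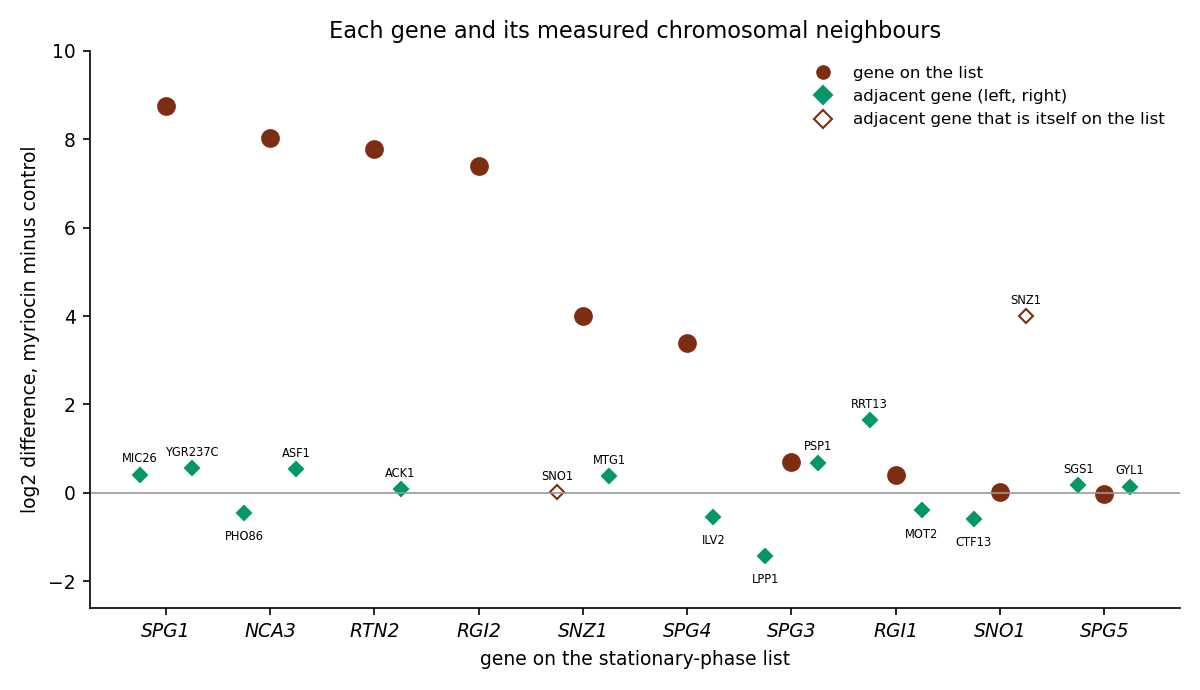
Log2 difference, myriocin minus control (vertical axis), of each of the 10 stationary-phase genes (large circles) and of its measured left and right neighbours (diamonds, open where the neighbour is itself among the 10). The neighbours outside the list lie between -1.42 for LPP1 and 1.65 for RRT13; neither neighbour of RGI2 was measured.

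Genes listed for this report as markers of the diauxic shift and stationary phase were then counted, without the 10. Of 36 genes, 34 rose (94.4%, against 25.5% of all genes) with a median of 2.38, and SOD1 and SED1 had differences of 0.07 and 0.08 (limma adjusted p = 0.432 and 0.403). This list was also written with earlier results of these data known, so the choice of its genes may fix in part the share that rose. FMP45, a membrane protein of the Sur7 family, rose by 8.27 (SE 0.29, limma adjusted p = 2.48e-05), with 11.34, 10.38 and 11.15 with myriocin and 2.87, 2.31 and 2.89 in control cells. Its control arrays were close to the background ceiling of 2.07, as those of SPG1 were. CTT1, the cytosolic catalase, rose by 6.46 (SE 0.47), MOH1 by 5.88 (SE 0.32) and PNS1 by 5.84 (SE 0.73). PNS1 had 10.41, 10.34 and 10.03 with myriocin, against 6.09, 4.21 and 2.97 in control cells, so that the control arrays set most of its error. Among stress genes on this list, the heat shock genes HSP30, HSP26 and HSP12 rose by 4.54, 2.58 and 2.39, and the polyubiquitin gene UBI4 by 0.68. HSP26, HSP12 and UBI4 had means of 15.41, 15.30 and 15.36 with myriocin, close to the top of the scale as RGI1 was.

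Most regulators of this programme had smaller differences than these markers. Of 40 regulators, 18 rose (45.0%) and 5 fell (12.5%), against 25.5% and 28.8% of all genes, with a median of 0.19. With the hybridisation control scaling 26 rose and no call was lower, against 39.9% and 12% of all genes. ADR1, an activator of genes for ethanol and fatty acid use, rose by 3.64 (SE 0.14, limma adjusted p = 3.15e-05), with 8.74, 8.44 and 8.70 with myriocin and 5.22, 4.82 and 4.93 in control cells. CAT8, an activator of gluconeogenesis, rose by 3.36 (SE 0.60, limma adjusted p = 0.00448), with 8.89, 7.60 and 7.61 with myriocin and 5.88, 4.13 and 4.01 in control cells. Replicate 1 was the highest array of each group for CAT8, as it was for SPG1, RTN2 and RGI2.

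MSN4 rose by 1.72 (SE 0.37, limma adjusted p = 0.00877) and HAP5, a subunit of the Hap complex, by 1.63 (SE 0.19, limma adjusted p = 0.000949). MSN2, the paralog of MSN4, had -0.46 (SE 0.20, limma adjusted p = 0.0968). RIM15 and GIS1 had 0.16 and 0.08 (limma adjusted p = 0.124 and 0.66), while RPH1, the paralog of GIS1, rose by 1.24 (SE 0.07, limma adjusted p = 0.000151). SNF1, the kinase that releases glucose-repressed genes, had 0.02 (limma adjusted p = 0.887). RAS1, a GTPase gene of glucose signalling, and BAS1, a regulator of purine and histidine genes, fell by 0.47 and 0.67 (limma adjusted p = 0.00896 and 0.00181), both calls being lost with that scaling (adjusted p = 0.352 and 0.0803).

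SNZ1 is known as a target of Gcn4, the activator of amino acid synthesis genes, and 45 other known targets were read beside it. Of these 9 rose (20.0%) and 17 fell (37.8%), against 25.5% and 28.8% of all genes, with a median of -0.12. With the hybridisation control scaling 16 rose and 5 fell, against 39.9% and 12% of all genes, and the median was 0.19. The largest increases among them were in lysine genes: LYS1 rose by 2.08 (SE 0.18), LYS2 by 1.35 (SE 0.19), and LYS20 and LYS21 by 1.17 each, with LYS1 at 12.74, 12.55 and 13.24 with myriocin and 10.87, 10.77 and 10.65 in control cells. ATG41, listed under its older name ICY2, fell by 3.25 (SE 0.23, limma adjusted p = 0.000249), HOM3 of threonine and methionine synthesis fell by 1.66 (SE 0.18), TRP4 fell by 1.26 (SE 0.08) and SER3 fell by 1.14 (SE 0.14). GCN4 itself had 0.18 (SE 0.07, limma adjusted p = 0.0717).

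Spg5 acts on the proteasome, and 23 genes listed as proteasome-associated were read beside SPG5. They are mostly partners and assembly factors, with the subunit genes RPN10, RPN13 and SEM1. UBI4, also among the stationary-phase markers above, is on this list too. Of these 7 rose (30.4%) and 8 fell (34.8%), near the shares of all genes (25.5% and 28.8%), with a median of 0.02. Under the hybridisation control scaling 9 rose and no call was lower, against 39.9% and 12% of all genes. Without myriocin replicate 1, 4 rose, and the number higher among all genes also went down, from 1384 to 1162. Without control replicate 2, 5 fell, and the number lower among all genes went from 1562 to 1176. RPN4, the activator of proteasome genes, rose by 0.70 (SE 0.09, limma adjusted p = 0.00157), and CUE5, an autophagy adaptor for ubiquitylated proteins, by 0.62 (SE 0.07, limma adjusted p = 0.000818). The assembly chaperone genes PBA1 and ADD66 fell by 0.73 and 0.71 (limma adjusted p = 0.00197 and 0.00146), and ECM29 by 0.66 (limma adjusted p = 0.00269). These 3 calls were lost with that scaling (adjusted p from 0.0534 to 0.104). UBP6, the deubiquitylating enzyme of the proteasome, had 0.08 (SE 0.06, limma adjusted p = 0.313).

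**Figure D4:**
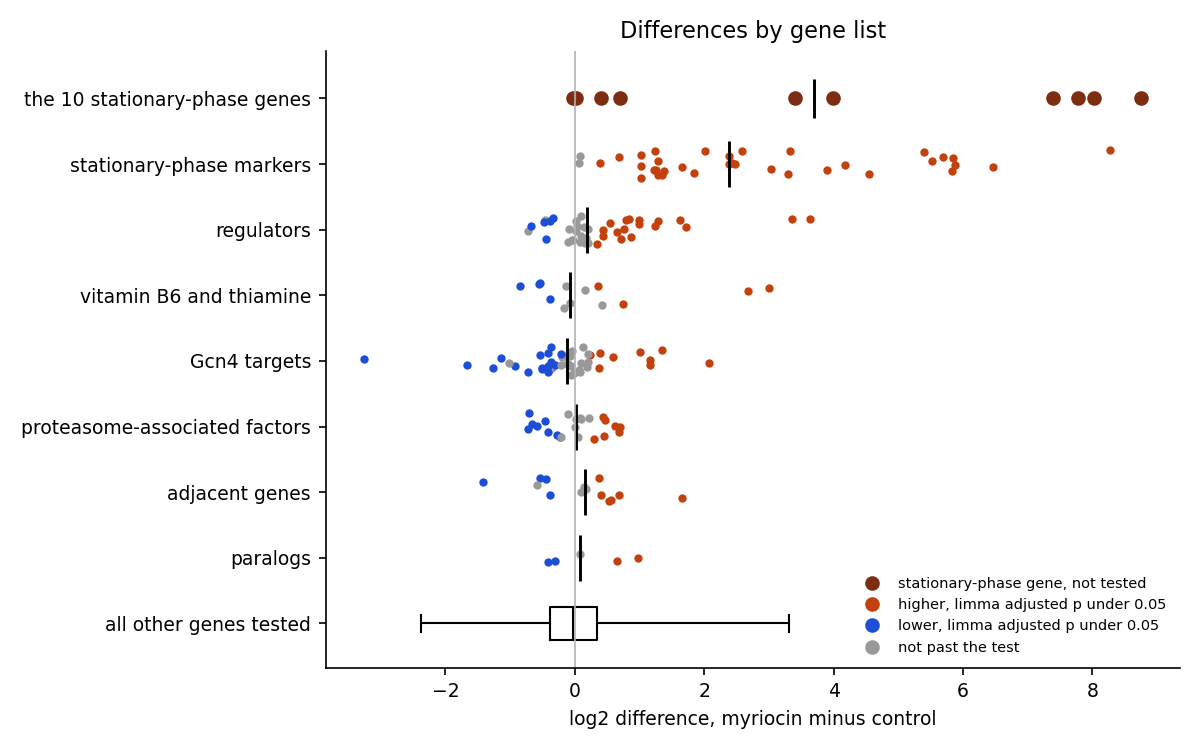
Log2 difference, myriocin minus control (horizontal axis), of the 10 stationary-phase genes, of the genes in each list and of all other genes tested (box at the quartiles, whiskers at the 1st and 99th percentiles, -2.43 and 3.32). Vertical bars are medians, 3.69 for the 10 genes and 2.38 for the stationary-phase markers; orange and blue points passed limma's test as higher and lower.

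Genes outside the list whose pattern was most like the mean of the 10 were found by the distance over the 6 arrays between log2 values, each taken relative to its own control mean. For the 10 genes this mean was 4.36, 3.78 and 3.99 on the myriocin arrays, and 0.16, -0.23 and 0.07 on the control arrays. YNL195C was the closest, at a distance of 0.364 log2 units, with 12.82, 12.17 and 12.27 with myriocin and 8.28, 8.26 and 8.26 in control cells. FMP40 followed at 0.455, and SIP18, which encodes a hydrophilin of desiccation tolerance, at 0.56. YNL194C, a Sur7-family protein like FMP45, and YLR031W lay at 0.574 and 0.576, and all 5 had log2 differences between 3.86 and 4.28. SNO1, at background, was kept in that mean. The mean of the 10 stands for few of its members, whose own differences fell in 3 ranges: 7.39 to 8.75, 3.40 to 3.99, and -0.02 to 0.70.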

How the data were processed

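Labelled RNA from 6 cultures was read on single-colour arrays. The authors deposited a normalised log2 signal for each probe set. Partek is the only tool in the submitters' processing notes, with its version, summarisation and normalisation not given in the sources used here. Differences of group means matched the log2 of the ratio in the authors' deposited table to within 8.48e-05 for 5899 probe sets. That table also holds the authors' p-values and a signed fold score, per the file headers.

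Genes were named from the platform annotation updated through RefSeq R64, then from the authors' fold change table. Names given only in their lists of changed genes were not used, since those lists select on the outcome. Of 5900 probe sets, 5445 named 1 gene, 79 several and 192 none, and 184 were controls. The brightest probe set stood for each of 5420 genes, and each of the 10 genes had 1. Limma 3.58.1 in R 4.3.3 compared the groups (two-sided, Benjamini-Hochberg over all genes, adjusted p under 0.05), after a test on simulated data. SEs of the 10 genes come from their group SDs.

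Deviations from group means correlated at 0.169, 0.233 and 0.175 for arrays with equal replicate numbers. For arrays with unequal numbers the correlations lay between -0.151 and -0.0552. The numbers were therefore taken as pairs in an alternative fit with a block, while the main fit had no block. The other alternatives were quantile normalisation, equal medians, hybridisation control scaling (26 spiked probe sets), a filter on dim genes, averaged probe sets, an intensity trend, an equal-variance test, a floor at background and each array left out. Leaving out background genes and adding probe sets of several genes were chosen after seeing the data.

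The 10 genes and all lists were chosen with earlier results of these data known. Lists could share genes, as they did UBI4, XBP1 and ILV2. The text names the 10, their relatives and neighbours, up to 4 called genes a direction of each other list, and the 5 genes most alike; further genes were picked after their values were seen. No sequence is printed. Figures were drawn with matplotlib 3.10.9.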

Additional observations from a re-analysis of the deposited data

How the results depend on the processing

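Of the 10 genes, SPG1, NCA3, RTN2, RGI2, SNZ1 and SPG4 kept their differences to within 1 replicate SD under every alternative that could be run for them. With the hybridisation control scaling, SPG3 had 1.01, RGI1 0.72 and SPG5 0.30, since that scaling adds the same amount to every gene; the 0.33 it gives SNO1 is no measured difference, that gene being under the background ceiling. It gave 2164 genes higher and 651 lower, 0 lower among relatives, regulators and proteasome partners, 1 lower among neighbours and among vitamin genes, and 16 higher and 5 lower among Gcn4 targets, and SUN4 turned to 0.00. With the dimmest genes left out, 1 vitamin gene was higher, because fewer of that list were tested. Without single arrays, 1 to 2 relatives fell, and 4 to 6 proteasome partners rose and 5 to 7 fell. Of the regulators 14 to 18 rose, and of the Gcn4 targets 12 to 16 fell. Over all genes, 1101 to 1274 rose and 1176 to 1401 fell in these fits. With the replicate block 1374 genes were higher and 1471 lower, and of the 55 relatives, neighbours and list genes followed through the alternatives, PDC2 and THI7 lost their calls (limma adjusted p = 0.0703 and 0.0502). PDC2, THI7, TPK3, RPN14 and POC4 were also lost without some single arrays. Values near background limit what SPG1, RGI2, SNO1 and FMP45 can show.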
